A study of Xenopus tropicalis with 7 samples.

Results

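Excitation-contraction coupling is the chain of events that turns an action potential of a muscle fibre into a rise of cytosolic calcium and then into contraction. Of 10 genes of this chain chosen by symbol (*ryr1*, *cacna1s*, *casq1*, *casq2*, *atp2a1*, *jph1*, *jph2*, *trdn*, *ocm.2* and *pvalb*), 9 were matched to the read count table of 19884 genes, with all transcripts of a gene summed, and all 9 passed the minimum of 10 reads that left 16944 genes for testing. *trdn*, which encodes triadin, was not matched to a row and was not analysed here. The table covered whole *Xenopus tropicalis* embryos of the wild-type Nigerian (Cam4) strain. There were 3 libraries of early tadpoles (stage 32) that had received 20 ng in total of splice- and translation-blocking morpholinos against the Brachyury paralogs *Xbra* and *Xbra3* at the 1-cell stage (Xbra/Xbra3 KD), 3 libraries of stage 32 tadpoles that had received 20 ng of a control morpholino (control embryos), and 1 library of uninjected tailbud embryos (stage 20). A morpholino lowers the protein without changing the gene, and each library was made from the RNA amount of 2 embryos, so that a value is an average over whole embryos and not a level in muscle.

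In a skeletal muscle fibre, the L-type calcium channel of the surface membrane acts as the voltage sensor. It touches the ryanodine receptor of the sarcoplasmic reticulum (SR) at the triad junction, where junctophilins hold both membranes together, and the opened receptor lets out calcium that calsequestrin has kept bound inside the SR. Calcium then binds troponin, after which SERCA pumps return it to the SR and small cytosolic buffers of the parvalbumin family (the oncomodulins among them) take up the rest and speed relaxation. In *Xenopus* embryos most trunk and tail muscle comes from the paraxial mesoderm, whose posterior part needs Brachyury.

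Depth ranged from 73740300 to 120160026 counted reads per library. *Xbra3* (listed as *t2*) was at 0.772, 0.515 and 0.556 CPM (reads of a gene per 1000000 reads of the library, after scaling) in Xbra/Xbra3 KD and at 27.3, 14.5 and 24.5 CPM in control embryos, which matched the labels. The RNA of the other target, *Xbra* (listed as *t*), differed less. It was at 8.55, 7.76 and 6.30 CPM in Xbra/Xbra3 KD and at 17.5, 9.90 and 16.1 CPM in control embryos. The defining markers of skeletal muscle were present in every library, with 0 of 19 at zero. Their summed level was 1828 to 2346 CPM in Xbra/Xbra3 KD, 4240 to 4940 CPM in control embryos and 4607 CPM at stage 20, and 11 of the 19 fell at a false discovery rate (FDR) below 10%. In this edgeR fit 6.98% of the 16944 genes tested fell and 7.44% rose. DESeq2, an alternative, called 3389 genes in both directions together. The summed level of 12 heart markers was 450 to 469 CPM in Xbra/Xbra3 KD against 329 to 382 CPM in control embryos, although none of the 12 passed the edgeR test (3 higher and 1 lower at an unadjusted p below 0.05, and 0 higher and 1 lower with DESeq2). With the replicate number as a block, a fit that called 19.0% of all genes lower and 19.2% higher, 7 of the 12 heart markers were higher and 1 lower. The summed level of 13 neural markers was 1546 to 1739 CPM against 1099 to 1293 CPM, with 3 of the 13 higher, and that of 10 blood markers overlapped (1617 to 3192 CPM against 2063 to 2879 CPM), with 2 of the 10 lower. The heart, neural and blood sums were carried mainly by a few genes. In KD replicate 1, *myl4* and *myh6* were at 204 and 117 CPM of a heart sum of 450 CPM. *tubb2b* and *sox3* were at 815 and 357 CPM of a neural sum of 1643 CPM, and *hba3* and *hbe1* at 942 and 414 CPM of a blood sum of 1617 CPM. At stage 20 the heart sum was 302 CPM, of which *myl4* alone was at 175 CPM, while *myl7* was at 0.195 CPM. With the block, 16 of the muscle markers were lower, 8 of the neural markers higher and 4 of the blood markers lower. In whole embryos, fewer muscle cells and less of a transcript per muscle cell cannot be told apart, and how far these shifts enter the values below was not tested beyond the scaling to muscle markers.

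Loss of Xbra/Xbra3 was accompanied by lower expression of most of these genes. Of the 9 genes, 7 fell (*cacna1s*, *ryr1*, *jph1*, *jph2*, *casq1*, *casq2* and *ocm.2*), by 1.48-fold to 4.70-fold. The other 2, the SERCA pump gene *atp2a1* and the buffer gene *pvalb*, did not pass this test in either direction. With the replicate number as a block, *atp2a1* was called lower too (log2 fold change −0.33, FDR = 0.0391), in a fit that called 19.0% of all genes lower. In the edgeR comparison without the block 6.98% of all genes tested fell and 7.44% rose, and none of the 9 genes rose (0 also at an unadjusted p below 0.05 and with DESeq2). The median log2 fold change of the 9 genes was −1.10, against 0.01 for all genes tested. The genes had been chosen with earlier results of these data known, so these contrasts are not independent of the choice. In 7 of the 9 genes the highest KD library was lower than the lowest control library, an arrangement that 14.6% of all genes showed, while 15.9% showed the reverse and none of the 9 did. With 1 library left out, the count of 7 falls was lower. It became 4 without KD replicate 1 or KD replicate 3, and 3 without control replicate 3. Calls over all genes dropped in the same fits, from 2443 to 1315, 1478 and 868.

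**Figure D1:**
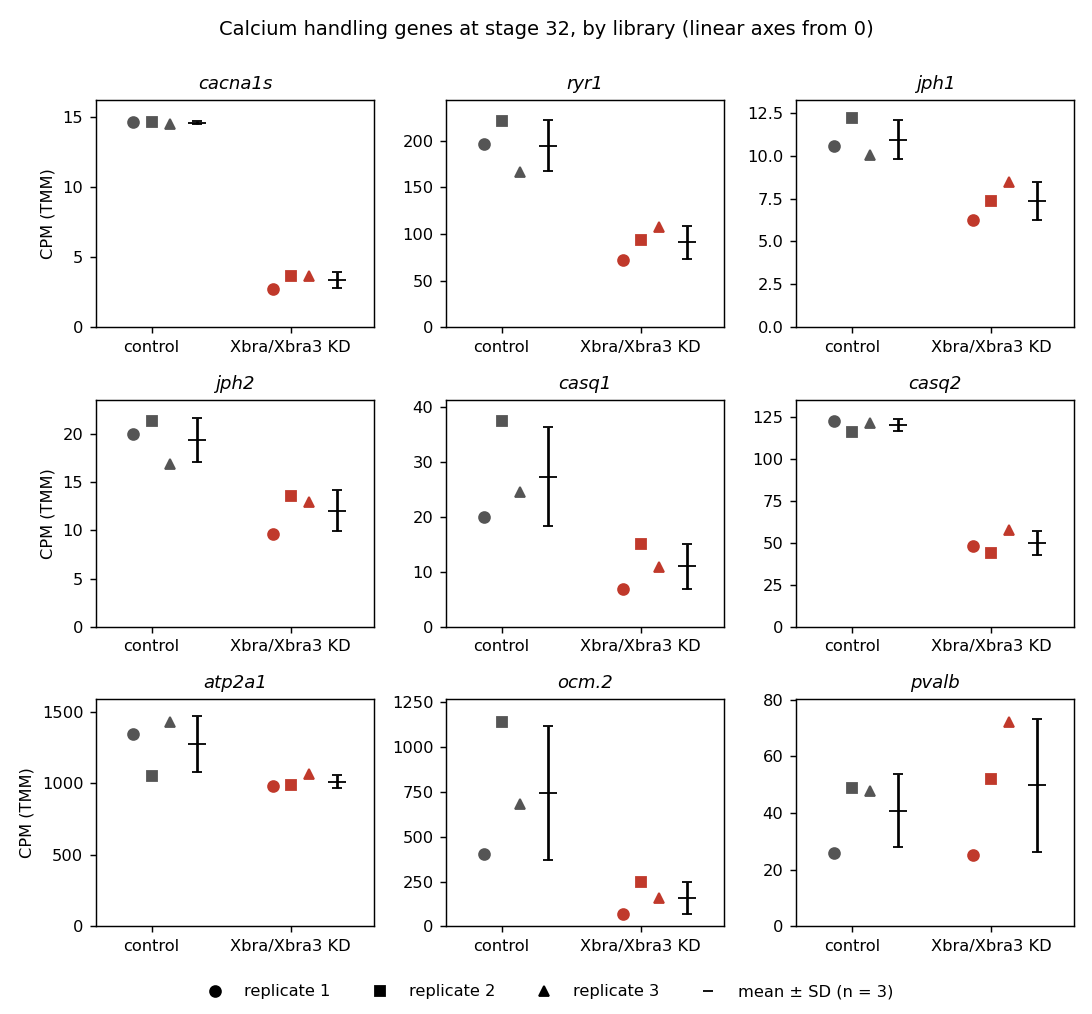
Level of each of the 9 genes in CPM (linear axes from 0) in the 3 control and 3 Xbra/Xbra3 KD libraries of stage 32; the shape of a point gives the replicate number, and the dash and bar give the mean ± SD (n = 3). The groups are separate for all genes but *atp2a1* and *pvalb*, and the control libraries of *cacna1s* and *casq2* lie close together while those of *ocm.2* are spread from 404 to 1143 CPM.

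The voltage sensor gene fell more than 4-fold. *cacna1s* (ENSXETG00000015130) encodes the pore-forming and voltage-sensing subunit of the skeletal muscle L-type channel, the dihydropyridine receptor. It was at 2.71, 3.70 and 3.67 CPM in the KD libraries (277, 294 and 403 reads) and at 14.7, 14.7 and 14.5 CPM in the control libraries (1638, 1652 and 1115 reads). The control libraries differed by far less than the distance between the groups, and the mean fell from 14.6 ± 0.107 to 3.36 ± 0.565 CPM (SD, n = 3 each), a log2 fold change of −2.12 (SE 0.17, FDR = 0.00198). It was past the threshold in all 17 alternative analyses, with log2 fold changes from −2.21 to −1.92.

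Other parts of the channel complex were less uniform. *cacng1*, the gamma subunit of the skeletal muscle channel, fell (log2 fold change −0.84, SE 0.16, FDR = 0.0229). *stac3*, an adaptor that holds the channel at the triad, was at 2.25, 3.90 and 4.66 CPM in KD against 5.71, 10.1 and 6.06 CPM in control embryos. The libraries of *stac3* did not overlap, but the change just missed the threshold (log2 fold change −1.02, SE 0.33, FDR = 0.103). It was called with the replicate number as a block (FDR = 0.00886) and with DESeq2 (FDR = 0.0196), in 5 of 16 alternatives at 10% in all. The alpha-2/delta subunit gene *cacna2d1*, which is used in many tissues, was not called (0.09, SE 0.29, FDR = 0.890), nor was the beta subunit gene *cacnb1* (0.23, SE 0.13, FDR = 0.340). The L-type channel genes of heart, brain and endocrine cells, *cacna1c* and both loci named *cacna1d*, had log2 fold changes between −0.06 and 0.27 and were not called either.

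The release channel gene fell as well. *ryr1* (ENSXETG00000002823), the skeletal muscle ryanodine receptor, was at 72.5, 93.2 and 107 CPM in Xbra/Xbra3 KD and at 197, 221 and 166 CPM in control embryos. The groups did not overlap, and the mean in KD was 46.7% of control (90.9 ± 17.4 against 195 ± 27.6 CPM, SD, n = 3), with a log2 fold change of −1.10 (SE 0.17, FDR = 0.0127). The call held in all 17 alternatives. Within each numbered pair of libraries the log2 difference was −1.44, −1.25 and −0.63, so that replicate 3 showed the smallest one. *fkbp1b*, which encodes an immunophilin that binds ryanodine receptors, had a log2 fold change of −0.54 (SE 0.26) that was past the threshold with the replicate block (FDR = 0.00514) but not without it (FDR = 0.245). Inositol trisphosphate receptors, which release calcium from stores in non-muscle cells, were not called. Their log2 fold changes were 0.18 for *itpr1*, −0.14 for *itpr2* and 0.29 for *itpr3*, of which *itpr3* was called higher with the block (FDR = 0.0786).

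The junctophilins bridge the surface membrane and the SR, and both fell, with smaller estimates than those of the channels they bring together; the difference was not tested. *jph1* (ENSXETG00000011834), the skeletal muscle form in mammals, was at 6.25, 7.37 and 8.46 CPM in KD and at 10.5, 12.2 and 10.01 CPM in control embryos. *jph2* (ENSXETG00000001770), which mammals use in heart and in skeletal muscle, was at 9.58, 13.6 and 12.9 CPM against 19.9, 21.3 and 16.9 CPM. Neither gene had overlapping groups, and the log2 fold changes were −0.57 (SE 0.17, FDR = 0.0880) for *jph1* and −0.69 (SE 0.18, FDR = 0.0559) for *jph2*. Both calls stood close to the threshold. That of *jph1* was lost without KD replicate 1 (FDR = 0.211), KD replicate 2 (0.168), control replicate 1 (0.161), control replicate 2 (0.159) or control replicate 3 (0.173). That of *jph2* was lost without KD replicate 1 (FDR = 0.124), KD replicate 3 (0.104), control replicate 1 (0.131) or control replicate 3 (0.109). Under the replicate block, which called 19.0% of all genes lower, the FDR was 0.0185 for *jph1* and 0.00823 for *jph2*. The neuronal paralog *jph3* was not called (−0.05, SE 0.33, FDR = 0.941).

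Of the other genes of the junction, *sypl2* (mitsugumin 29, a membrane protein of the mammalian triad) fell from 218 to 246 CPM in control embryos to 94.9 to 133 CPM in KD (log2 fold change −1.09, SE 0.15, FDR = 0.00823). *asph*, whose locus encodes junctin and junctate beside an aspartyl hydroxylase that many tissues use, fell by 0.41 on the log2 scale (SE 0.11, FDR = 0.0640). *bin1*, *mtm1* and *dysf*, which shape or repair muscle membranes, were not called, with log2 fold changes of −0.07, 0.15 and 0.40.

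Of the 7 tested genes of the SR calcium store, 4 fell, against 6.98% of all genes tested. All 7 estimates were below 0, where the median of all genes was 0.01. *casq1* and *casq2*, which are among the 4, had been chosen with earlier results of these data known. Calsequestrins bind calcium within the SR with high capacity, *casq1* chiefly in fast skeletal muscle and *casq2* in mammalian heart and slow muscle. *casq2* (ENSXETG00000023738) was at 48.2, 43.8 and 57.5 CPM in KD and at 123, 116 and 122 CPM in control embryos, a tight and well separated pair of groups, and fell 2.41-fold (log2 fold change −1.27, SE 0.13, FDR = 0.00322, called in all 17 alternatives). *casq1* (ENSXETG00000008124) was at 6.97, 15.2 and 10.9 CPM against 20.0, 37.6 and 24.6 CPM. The fall of *casq1* was of about the same size (log2 fold change −1.32, SE 0.32, FDR = 0.0497) but its libraries were spread more widely within each group, and the call was lost without KD replicate 1 (FDR = 0.102), KD replicate 3 (0.132) or control replicate 3 (0.127). The spread of *casq1* followed the replicate numbers. Replicate 1 was the lowest and replicate 2 the highest in both groups, and the pairwise log2 differences lay between −1.52 and −1.17. Under the replicate block, which called 19.0% of all genes lower, the FDR of *casq1* was 0.000206. Which tissue the reads of *casq2* came from was not tested.

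Among the remaining SR genes, *tmem38a*, which encodes the TRIC-A potassium channel of muscle SR, fell from 288 to 375 CPM in control embryos to 105 to 170 CPM in KD (log2 fold change −1.30, SE 0.19, FDR = 0.00996). Its widely expressed paralog *tmem38b* was not called (−0.06, SE 0.24, FDR = 0.911). *calu*, a calumenin of the secretory pathway, fell by 0.54 on the log2 scale (SE 0.14, FDR = 0.0607). Sarcalumenin (*srl*, −0.66, FDR = 0.191) and calreticulin (*calr*, −0.31, FDR = 0.264) were not called, but were lower with the replicate block (FDR = 0.00376 and 0.0431), as *srl* also was when control replicate 2 was left out.

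Unlike *cacna1s* and *ryr1*, the SERCA pump gene did not pass the test without the replicate block. The difference between these genes was not tested. *atp2a1* (ENSXETG00000009695), the SERCA1 pump of fast skeletal muscle, was at 982, 987 and 1063 CPM in Xbra/Xbra3 KD and at 1349, 1052 and 1429 CPM in control embryos. The groups overlapped, since KD replicate 3 was above control replicate 2. The log2 fold change was −0.34 (SE 0.15, 95% interval −0.69 to 0.02, FDR = 0.220), an interval that allows a fall of up to 1.62-fold. With the replicate number as a block, under which 19.0% of all genes were called lower, it was −0.33 and past the threshold (FDR = 0.0391). *atp2a2*, the SERCA2 pump of heart and of most non-muscle cells, was at 0.00 (SE 0.12, FDR = 0.988), and *atp2a3* at 0.05 (SE 0.19, FDR = 0.907).

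Of the exchangers and pumps of the surface membrane, *slc8a3*, a sodium-calcium exchanger of skeletal muscle and brain, fell from 20.8 to 25.2 CPM in control embryos to 7.50 to 9.72 CPM in KD (log2 fold change −1.37, SE 0.16, FDR = 0.00458). Its paralogs *slc8a1*, the exchanger of heart, and *slc8a2*, that of brain, were not called (0.08, SE 0.34 and 0.28, SE 0.21). The plasma membrane calcium pump genes *atp2b3* and *atp2b4* rose, the first by 0.59 (SE 0.18, FDR = 0.0917) and the second by 0.72 (SE 0.22, FDR = 0.0895) on the log2 scale. *atp2b3* is known chiefly from neurons. The summed neural markers were higher in KD, as given above, but only 3 of the 13 were called without the block (*sox2*, *sox3* and *tubb2b*). The other 10 were not, among them *elavl3*, *neurod1*, *snap25* and *nefm*. The part of neural tissue in the changes of *atp2b3* and *atp2b4* was not tested. Each of these calls stood just inside 10%, and the count of 2 became 1 when control replicate 2 was left out and 0 when any other single library was. Calls over all genes, 2443 with all libraries, became 1961 without control replicate 2 and 868 to 1478 without any other. *atp2b1* and *atp2b2* had log2 fold changes of −0.33 and −0.39 and were not called. With the block both were called lower (FDR = 0.0261 and 0.0119), and *atp2b2* was so with DESeq2 too (FDR = 0.0784).

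**Figure D2:**
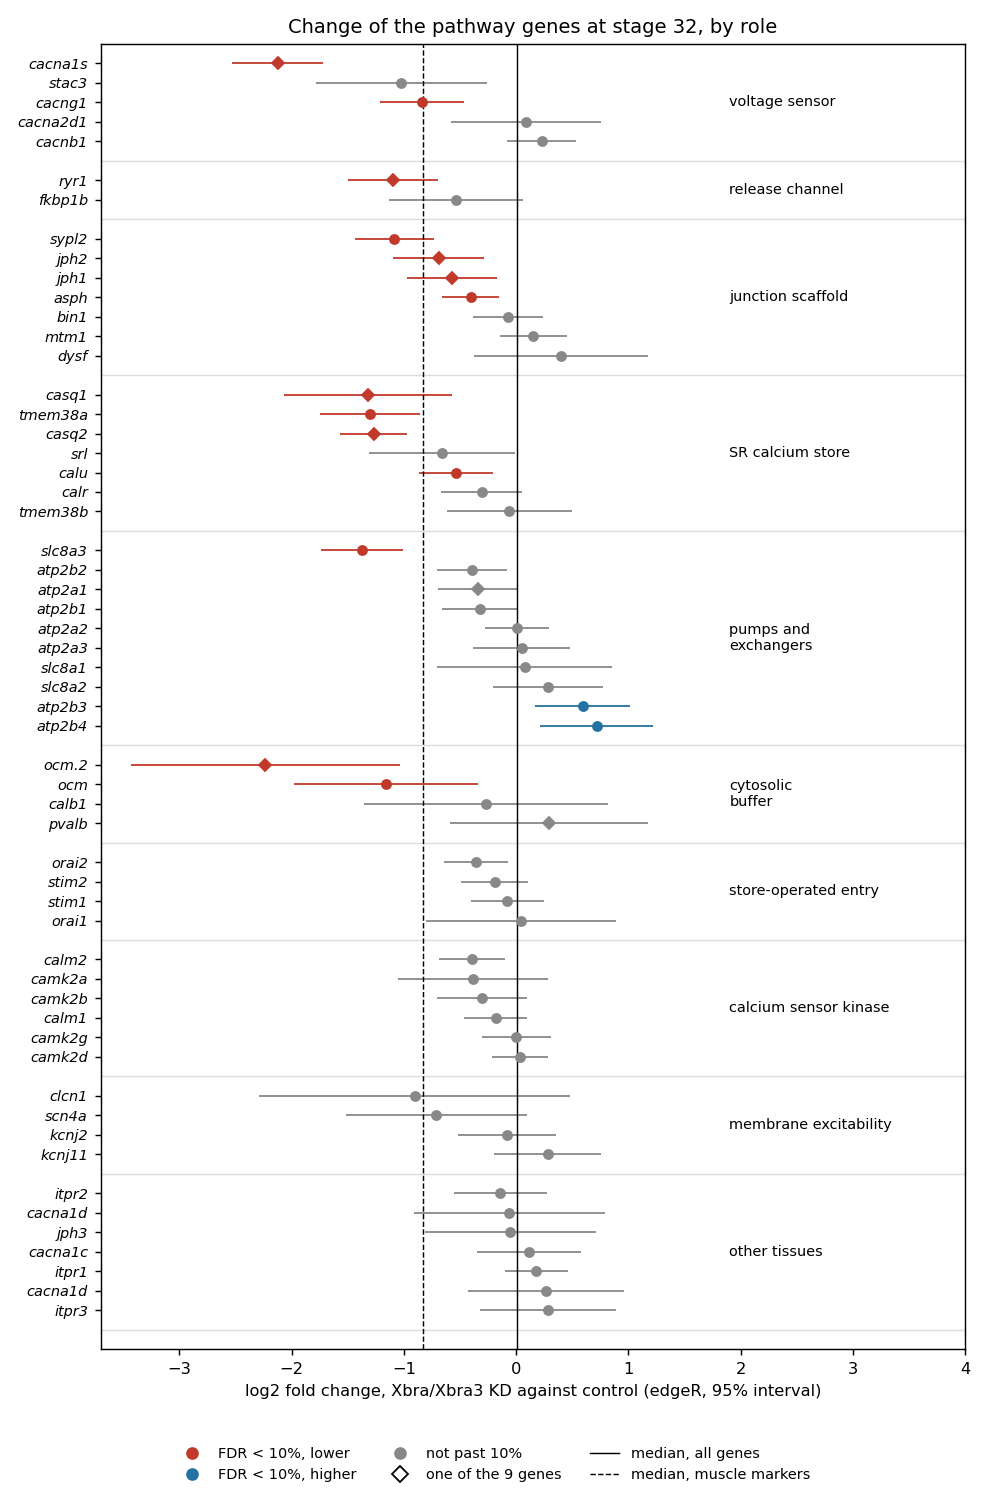
Log2 fold change (Xbra/Xbra3 KD against control, edgeR, points with 95% intervals) of the 56 tested genes of the calcium handling list, grouped by role, with the 9 genes described here as diamonds. Red marks genes lower and blue genes higher at an FDR below 10%; the solid line is the median of all genes (0.01) and the dashed line that of the skeletal muscle markers (−0.83). Falls are found in the upper 6 groups, 14 in all, and none in the lower 4, where 6.98% of all genes tested fell. The lower groups hold only 4, 6, 4 and 7 genes, too few for 0 falls to stand out from that share. With the replicate block, which called 19.0% of all genes lower, *orai2*, *calm2*, *scn4a* and *clcn1* of these groups were called lower.

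Cytosolic calcium buffers gave the widest range. *ocm.2* (ENSXETG00000024051), an oncomodulin, was at 67.4, 249 and 158 CPM in KD (6897, 19790 and 17311 reads) and at 404, 1143 and 681 CPM in control embryos (45170, 128461 and 52362 reads). Levels differed widely among the control libraries, yet the groups did not overlap. The log2 fold change was −2.23 (SE 0.52, FDR = 0.0410), and the pairwise log2 differences of −2.58, −2.20 and −2.11 lay close together, as replicate 1 was low and replicate 2 high in both groups. The call was lost without KD replicate 3 (FDR = 0.12503) or control replicate 3 (FDR = 0.116). Under the replicate block, which called 19.0% of all genes lower, the log2 fold change of *ocm.2* was −2.30 (FDR = 2.91e-05). *pvalb* (ENSXETG00000024043), listed as a parvalbumin, was at 25.3, 52.1 and 72.1 CPM in KD and at 25.9, 48.9 and 47.7 CPM in control embryos. These groups overlapped, and the log2 fold change of 0.29 (SE 0.38, 95% interval −0.59 to 1.17, FDR = 0.690) turned to −0.09 without KD replicate 3.

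Other oncomodulin rows had smaller estimates than *ocm.2*, and some of them fell as well. *ocm* was at 78.8, 181 and 170 CPM in KD against 225, 450 and 284 CPM in control embryos (log2 fold change −1.16, SE 0.35, FDR = 0.0896). Like the other genes described, *ocm* and *ocm.2* were chosen with earlier results of these libraries known, so that their direction is no independent evidence. A few further rows were taken up after their values had been seen. *ocm4.3* fell by 1.52 on the log2 scale (SE 0.28, FDR = 0.0192). *ocm4.1* was at 393, 746 and 625 CPM against 793, 1462 and 999.7 CPM, groups that did not overlap, with a log2 fold change of −0.88 (SE 0.29) that just missed the threshold (FDR = 0.107) and was called in 4 of 16 alternatives, among them the block (FDR = 0.000515) and DESeq2 (FDR = 0.0196). *ocm1*, at 2.70 ± 2.17 against 3.09 ± 2.20 CPM (SD, n = 3), was not called (−0.23, SE 0.66, FDR = 0.873). The buffer calbindin (*calb1*) was not called (−0.27, SE 0.47, FDR = 0.777).

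The names within this family are uncertain. A later RefSeq annotation (UCB_Xtro_10.0) holds 9 parvalbumin and oncomodulin genes, of which 8 are oncomodulins on chromosome 9 and 1, *pvalb*, is on chromosome 4. There, *pvalb* is also an older name of *ocm3* and *ocm4.1*, and *ocm.2* an older name of *ocm4.3*, which the count table lists in a row of its own. The rows called *pvalb* and *ocm.2* may therefore be other members of the family than their symbols say. Pairs of reads with hits in more than 1 gene had been discarded by the authors, so counts of near-identical copies are too low by an unknown amount in every library.

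Over the whole list of 73 names in the pathway, 56 genes were in the table and tested. Of these, 14 fell and 2 rose, against 6.98% and 7.44% of all genes, and 40 did not pass the test. Without the 9 genes described above, 7 of 47 fell and 2 rose, with a median log2 fold change of −0.08. The falls lay in 6 groups, with 2 of 5 genes of the voltage sensor, 1 of 2 of the release channel, 4 of 7 of the junction, 4 of 7 of the SR store, 1 of 10 of the pumps and exchangers and 2 of 4 of the cytosolic buffers. Store-operated entry (*stim1*, *stim2*, *orai1* and *orai2*) had 0 of 4 called (1 at an unadjusted p below 0.05 and 1 with DESeq2), and calmodulin with its kinases had 0 of 6 called (1 at an unadjusted p below 0.05 and 1 with DESeq2). The genes of membrane excitability (*scn4a*, *clcn1*, *kcnj2* and *kcnj11*) had 0 of 4 called and the channels and junctophilin of other tissues 0 of 7, both with 0 at an unadjusted p below 0.05 and 0 with DESeq2. The fit with the block called 19.0% of all genes lower and 19.2% higher, and in it 25 genes of the list were lower and 3 higher. Among the lower ones were *orai2* (FDR = 0.0377) and *calm2* (FDR = 0.00879), both also lower with DESeq2, and the sodium channel *scn4a* (−0.65, FDR = 0.0199) and the chloride channel *clcn1* (−0.78, FDR = 0.0446) of skeletal muscle. The count of 14 became 8 when KD replicate 3 was left out and 7 when control replicate 3 was. Calls over all genes dropped from 2443 to 1478 and 868 in these 2 fits.

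The changes were then set against those of a set of skeletal muscle markers, which need not stand for all of skeletal muscle. For this, each library was scaled by the mean log2 CPM of its 19 skeletal muscle markers, none of which is among the 9 genes, in place of depth. On this scale a value of 0 means that a gene changed as much as the markers did, and since the markers themselves had fallen, 73.7% of all genes were called higher and 1.03% lower, with a median of 0.91 on the log2 scale. Every gene was shifted upwards by about this amount, so that a small fall on the depth scale becomes a value above 0 by construction. The test takes the scaling of each library as known. With the median of the markers in place of their mean the estimates moved up, that of *ryr1* from −0.20 to 0.14. Of the 9 genes, 3 were called lower, 2 higher and 4 in neither direction. The 19 markers themselves were spread around their mean, with 4 called lower and 3 higher. They ranged from −1.22 for *lmod3* (FDR = 0.00360) to 1.24 for *mybpc1* (FDR = 0.0159), so such departures were not particular to the 9 genes.

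*cacna1s* fell further than the mean of the muscle markers, by 2.34-fold (log2 difference −1.23, SE 0.23, FDR = 0.00181), and was called in all 8 alternatives of this comparison. *ocm.2* did so by 2.59-fold (−1.37, SE 0.52, FDR = 0.0395), also in all 8. *casq2* was lower by 0.37 (SE 0.15, FDR = 0.0490), but this call held in 3 of 8 alternatives only. It was lost with the median of the markers in place of their mean (−0.01, FDR = 0.983) and without KD replicate 1 (FDR = 0.109), KD replicate 2 (0.166), control replicate 2 (0.118) or control replicate 3 (0.138).

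*ryr1* did not depart from the markers in a way this test could detect (−0.20, SE 0.19, 95% interval −0.63 to 0.22, FDR = 0.357), nor did *jph1* (0.32, interval −0.18 to 0.82), *jph2* (0.21, interval −0.26 to 0.69) or *casq1* (−0.44, interval −1.25 to 0.37). With the block, *casq1* was called lower (−0.43, FDR = 0.0238) and *jph1* higher (0.33, FDR = 0.0991). *jph1* was also called higher with the median of the markers in place of their mean (0.67, FDR = 0.0643). Without KD replicate 2, *casq1* was called lower (−0.79, FDR = 0.0706). *atp2a1* was higher relative to the markers by 1.48-fold (0.57, SE 0.17, FDR = 0.0141) in all 8 alternatives. *pvalb* was higher by 2.20-fold (1.14, SE 0.40, FDR = 0.0291), but not without KD replicate 3 (0.84, FDR = 0.108).

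**Figure D3:**
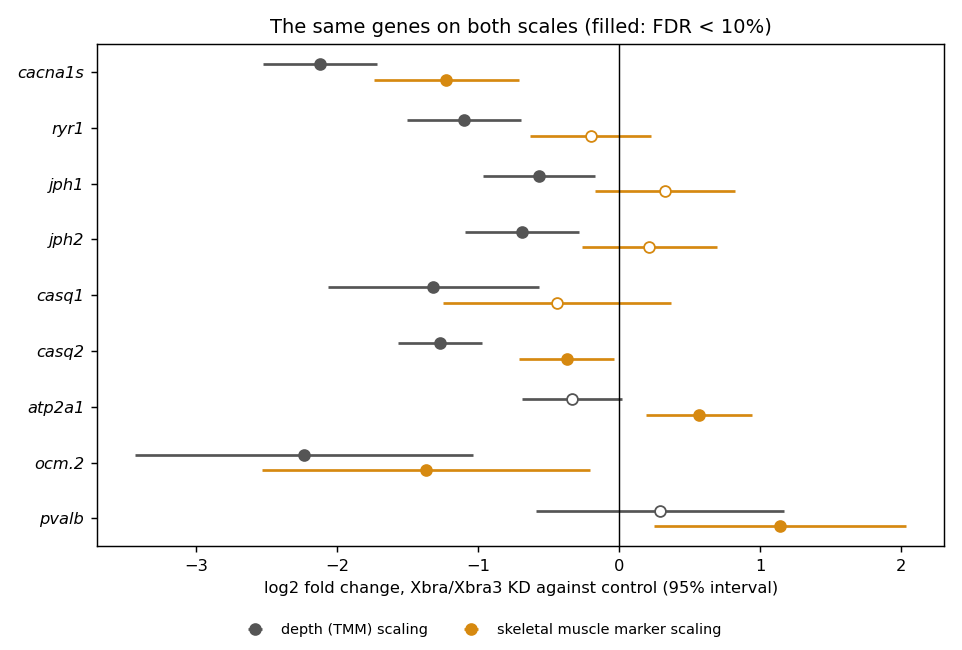
Log2 fold change (Xbra/Xbra3 KD against control, with 95% intervals) of the 9 genes with libraries scaled by depth (grey) or by 19 skeletal muscle markers (orange); filled points have an FDR below 10%. *cacna1s*, *ryr1*, *casq1*, *casq2* and *ocm.2* are below 0 on both scales, with filled points on both for *cacna1s*, *casq2* and *ocm.2*. Relative to the muscle markers, *jph1*, *jph2*, *atp2a1* and *pvalb* are above 0, with filled points for *atp2a1* and *pvalb* (0.57 and 1.14).

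Ratios of reads within a library need no scaling at all, and several of them differed between the groups. These ratios were chosen after the values had been seen and are given without a test. They restate changes given above, and the share of all gene pairs whose ratios separate was not computed. Of single genes, 14.6% were separate with KD lower and 15.9% with KD higher. There were 2.66, 4.77 and 2.19 reads of *ocm.2* for each read of *pvalb* in Xbra/Xbra3 KD and 15.6, 23.4 and 14.3 in control embryos, a 5.54-fold difference of the means without overlap. For *cacna1s* against *ryr1*, voltage sensor against release channel, the ratio was 0.0374, 0.0396 and 0.0343 in KD and 0.0745, 0.0665 and 0.0873 in control embryos. These groups were also separate, and the means differed 2.05-fold. Against the pump gene, *casq2* reads per *atp2a1* read differed 1.94-fold, *ryr1* reads 1.76-fold and *cacna1s* reads 3.51-fold between the means. Each was lower in KD without overlap. The ratios of *casq1*, *jph1* and *jph2* to *atp2a1* overlapped between the groups. The separation thus does not cover the store or junction genes as a group. *casq1* had 1207 reads to 78520 of *atp2a1* in KD replicate 2 and 2239 to 150832 in control replicate 1. *jph1* had 928 to 116672 in KD replicate 3 and 770 to 109898 in control replicate 3. *jph2* had 1082 to 78520 in KD replicate 2 and 1299 to 109898 in control replicate 3.

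Paralogs of one role differed in this. Reads of *ocm.2* per read of *ocm* numbered 0.855, 1.38 and 0.929 in KD and 1.797, 2.54 and 2.40 in control embryos, again without overlap and with a 2.13-fold difference of the means. The ratio of *jph1* to *jph2* was 0.652, 0.542 and 0.655 in KD and 0.528, 0.573 and 0.593 in control embryos, and that of *casq1* to *casq2* was 0.145, 0.346 and 0.190 against 0.163, 0.324 and 0.202. For both of these the groups overlapped. The ratio of *atp2a1* to *atp2a2* overlapped as well, at 4.05 to 4.71 in KD and 4.58 to 6.41 in control embryos.

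**Figure D4:**
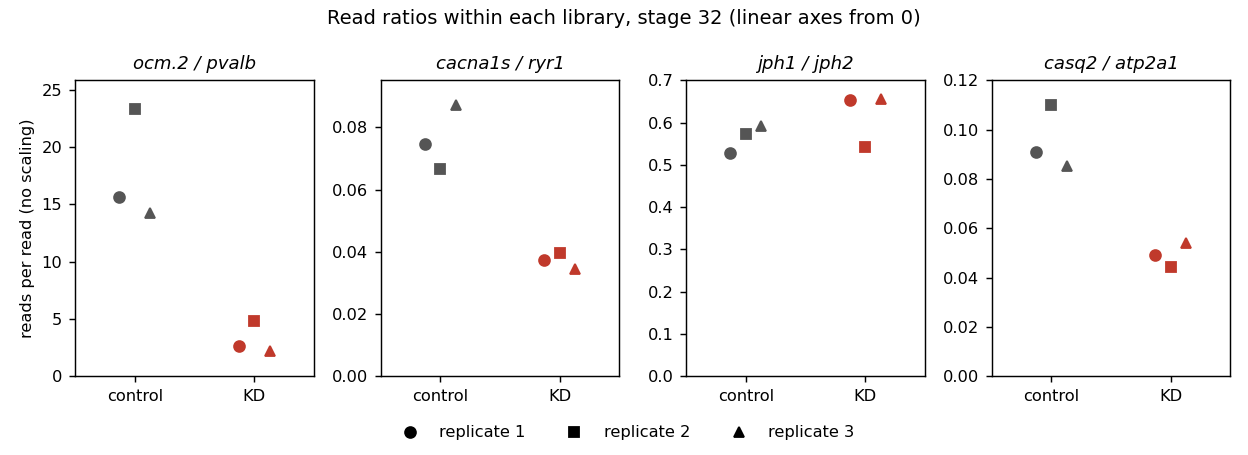
Reads of the first gene per read of the second in each stage 32 library (linear axes from 0, no scaling between libraries; the shape of a point gives the replicate number). For *ocm.2* to *pvalb*, *cacna1s* to *ryr1* and *casq2* to *atp2a1* the KD libraries are all lower than the control libraries, whereas for *jph1* to *jph2* the groups overlap.

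Levels at stage 20, when somites are still forming, were set beside those of the stage 32 tadpoles. The stage 20 embryos were uninjected and all stage 32 embryos had received 20 ng of morpholino, so stage and injection cannot be told apart. With 1 library there is no replicate and no test, and levels are given as CPM over all 7 libraries. *cacna1s* was at 14.5 CPM at stage 20 and at 14.4 to 14.5 CPM in stage 32 control embryos, so that its low level in Xbra/Xbra3 KD (2.66 to 3.61 CPM) was below both. *atp2a1* was at 1315 CPM at stage 20, within the control range of 1035 to 1421 CPM. *ryr1* (232 CPM against 165 to 218 CPM), *jph1* (13.3 against 9.96 to 12.0 CPM) and *jph2* (30.3 against 16.8 to 20.9 CPM) were somewhat above the control range at stage 20. *casq2* was at 91.1 CPM, below the control range of 114 to 122 CPM but above the KD range of 42.8 to 55.9 CPM.

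The remaining 3 genes were far lower at stage 20 than in tadpoles. *casq1* was at 4.29 CPM (463 reads) at stage 20 against 19.9 to 37.0 CPM in stage 32 control embryos, a 6.32-fold difference from their mean, and its KD libraries (6.86 to 14.8 CPM) lay in between. *ocm.2* was at 6.42 CPM (693 reads) and was 114-fold higher in stage 32 control embryos. *pvalb* had 20 reads (0.185 CPM) and was 218-fold higher. Stage 32 KD libraries of *ocm.2*, at 66.3 to 243 CPM, lay between both, and those of *pvalb*, at 24.9 to 70.2 CPM, overlapped the control range of 25.7 to 48.1 CPM. Both of the genes with the steepest difference between the stages were thus buffers, of which *ocm.2* fell in Xbra/Xbra3 KD and *pvalb* did not pass the test. Of the other oncomodulin rows, *ocm* was 47.5-fold, *ocm4.3* 16.1-fold and *ocm4.1* 22.2-fold higher in stage 32 control embryos than at stage 20.

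**Figure D5:**
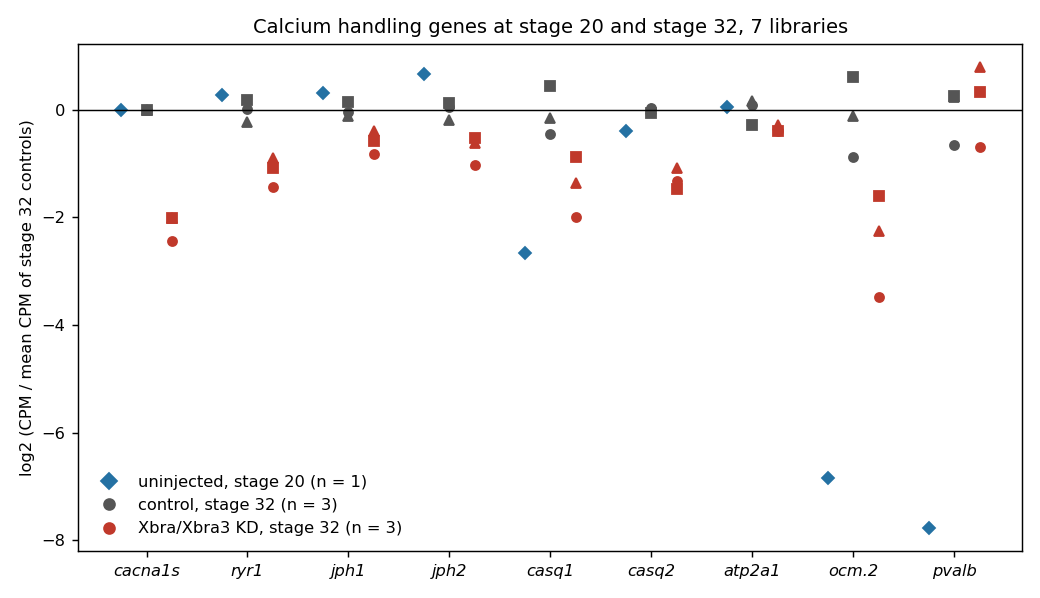
Level of each of the 9 genes relative to its mean in stage 32 control embryos (log2 scale, CPM over 7 libraries) in the stage 20 library (blue), the control libraries (grey) and the Xbra/Xbra3 KD libraries (red). The stage 20 point is near 0 for *cacna1s* and *atp2a1* and far below 0 for *casq1*, *ocm.2* and *pvalb*.

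The 9 genes did not share 1 profile, and their median in each library was used as a reference to find the genes most like it. For each of 12174 genes with a symbol and at least 20 reads on average at stage 32, the log2 CPM relative to the control mean was compared over the 7 libraries with the median of the 9 genes, and the root mean square difference (RMS, in log2 units) was taken. The closest were *insig2* (RMS 0.0930), an endoplasmic reticulum protein that restrains sterol synthesis, and *neb* (0.114), the giant actin-binding protein nebulin of the sarcomere and one of the muscle markers used above. They were followed by *nrbp1* (0.134), a pseudokinase, *tmem183a* (0.144) and *kcnma1* (0.153), a potassium channel opened by calcium and voltage. These 5 genes were chosen by their values in the same libraries, so that their log2 fold changes in Xbra/Xbra3 KD, from −1.10 to −0.78, follow from the choice. Of the 9 genes themselves, *ryr1* was nearest to their median profile (0.165, with 9 other genes closer), and *casq1* (1.05), *ocm.2* (2.73) and *pvalb* (2.99) were farthest.

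Most reads of each gene fell on 1 transcript model. *ryr1*, *jph2*, *casq2* and *pvalb* had 1 model each, and in the others the leading model held between 86.3% (*jph1*) and 99.96% (*casq1*) of the reads.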

How the data were processed

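PolyA RNA from whole embryos was sequenced by the authors as paired-end reads. They aligned the reads with Bowtie 0.12.7 to the Ensembl JGI4.1 transcriptome, discarded read pairs that hit transcripts of different genes, and deposited raw read counts per transcript (CASAVA 1.8 and DESeq are also named in the submitters' processing notes). Of the 7 value columns, 0 were unassigned. The kit and counting were not stated to use strand.

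Here, counts were summed per gene. Genes with at least 10 reads over the 6 stage 32 libraries were fitted with edgeR 4.0.16 (quasi-likelihood test, TMM scaling, R 4.3.3), and Benjamini-Hochberg FDR was taken over all genes, with 10% as the threshold. SEs and 95% intervals come from this fit, and CPM values use TMM factors. Alternatives were DESeq2 1.42.0, other scalings, filters and thresholds, single transcripts, each library left out, and edgeR's legacy dispersions (added after seeing the data). p-values measure the spread between 3 libraries per group, which the study calls biological replicates.

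The replicate numbers paired the libraries: deviations from the group means correlated at 0.573, 0.586 and 0.316 between same-numbered KD and control libraries and between −0.510 and 0.00961 otherwise, so fits with the number as a block are given where they change a call of a gene described or a count of a list.

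The genes described, the pathway list and the marker lists were chosen with earlier results of these data known. Named were all 10 chosen genes, pathway genes with an FDR below 10%, paralogs that a role needs, and the 5 genes closest in profile. Names came from the table and, for *cacnb1*, *atp2a3* and 3 oncomodulin rows, from RefSeq by accession. The markers *klhl40* and *klhl41* were matched by a RefSeq synonym. Promoter and protein sequences, and lengths for comparing levels between genes, were not analysed here. No group of 3 libraries was tested for outliers.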

Additional observations from a re-analysis of the deposited data

How the results depend on the processing

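The falls of *cacna1s*, *ryr1* and *casq2* passed the threshold in all 17 alternatives. These include a larger prior count in edgeR, which alters the estimate but not the FDR and so could not change a call. Those of *jph1*, *jph2*, *casq1* and *ocm.2* were lost in 8, 7, 4 and 2 of 17, and *pvalb* changed sign in 1 (leave-one-out range −0.093 to 0.61, the lowest without KD replicate 3). The 7 calls became 4 when libraries were scaled to 4 reference genes, which moved the median of all genes to 0.21, and 3 to 6 when 1 library was left out. Calls over all genes dropped from 2443 to between 868 and 1961 with 1 library left out. The 14 lower genes of the pathway list became 8 with reference genes, 9 at an FDR below 5%, 25 with the replicate block and 7 to 12 with 1 library left out. The 2 higher genes became 1 by library size alone, 0 with reference genes, 0 at an FDR below 5%, 1 with the leading transcript and 0 to 1 with 1 library left out. Relative to the skeletal muscle markers, the 2 higher calls became 1 to 2, and the 3 lower calls 2 to 3, with 1 library left out. The replicate block, which called 6468 genes in all against 2443 without it, gave 8 calls, *atp2a1* being the gain (−0.33), and changed no other call of the 9 genes on the depth scale. Causes were not tested. With 3 libraries per group and a single library at stage 20, small changes such as that of *atp2a1* are at the limit of detection.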
